A study of Drosophila melanogaster with 18 samples.

Results

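The serpin genes of *Drosophila melanogaster* were described here in whole adult males from 3 treatments. A serpin was taken as any probe set assigned to a single gene whose symbol begins with Spn and a cytological number, or is nec (necrotic). This rule gave 28 genes measured by 29 probe sets, of 18769 probe sets tested and 11982 genes named by a probe set of their own. Spn42Da had 2 probe sets, no probe set that matched several genes included a serpin, and the probes of Spn77Ba and Spn88Ea are marked by the array maker as able to match several transcripts. Acp76A, which the reference annotation also lists as Spn76A, does not carry the family's symbol and is given beside the members without being counted among them.

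Males were derived from the outbred LHm stock, 14 days from the egg and 4 days into adult life. MLX males came from populations in which the X-chromosome had passed from father to son for many generations by way of females with a double X (DX), although some males were returned each generation from recombination boxes, in which X-chromosomes can recombine in females. CDX males were sons of a Control father and a DX female, so that the X came from the father for a single generation and the Y from the mother. The paper describes this Y as derived from the MLX populations, where it could have evolved. Control males inherited the X from the mother. Each treatment had 6 arrays (Affymetrix GeneChip Drosophila Genome 2.0), 2 from each of 3 populations, or 18 arrays and 9 populations in all. The paper describes a pool of males on each array whereas the labels give a single male, and p-values measure the spread between these arrays and populations.

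Serpins are a family of proteins most of which inhibit serine proteases. A flexible reactive centre loop acts as bait, and the protease that cuts it is trapped in an inactive complex with the serpin. In *Drosophila* males, several serpins are made in the accessory gland, a paired organ of the reproductive tract, and are passed to the female with the seminal fluid. Others circulate in the haemolymph or act in the fat body and tracheae, where they restrain the protease cascades that activate the Toll pathway and that trigger melanisation through phenoloxidase.

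The 28 genes were grouped by these roles. There were 6 accessory gland serpins (Spn28F, Spn38F, Spn53F, Spn75F, Spn77Bb and Spn77Bc), 6 serpins of the haemolymph and related tissues (Spn27A, nec, Spn28Dc, Spn42Dd, Spn77Ba and Spn88Ea) and 16 others. Of these others, 3 (Spn28B, Spn28Da and Spn28Db) are less surely made in the accessory gland. None of the serpin genes lies on the X-chromosome, with 8 on arm 2L, 12 on 2R, 4 on 3L and 4 on 3R. They form clusters of 5 genes at 42D, 4 at 43A, 3 at 28D, 3 at 77B and 2 at 88E. Values are log2 expression after RMA, on which a difference of 1 is a doubling, and levels of different probe sets were not compared with each other. A single serpin, Spn100A, was dim, with a mean under the lower quartile of all tested probe sets (4.66).

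The arrays carried the transcripts of male tissues throughout. The mean of 5 testis markers lay between 11.76 and 12.00 on every array, and that of 13 accessory gland markers between 12.63 and 13.00. Yolk and eggshell markers, which are female transcripts, varied between single arrays, and the mean of 10 of them ran between 5.97 and 8.63 in MLX males, between 5.94 and 8.32 in CDX males and between 5.85 and 7.78 in Control males. The 2 arrays of CDX population 2 differed in them, with 8.32 and 5.94. Without the 6 arrays that were highest in these markers, the medians of the accessory gland and haemolymph serpins kept their sign in all 3 comparisons.

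The accessory gland serpins were lowest in 2 of the 9 populations, CDX population 2 and, by a smaller gap, MLX population 1. As a mean over the 6 genes, the population means were 12.08 in MLX population 1 and 11.93 in CDX population 2, against 12.22 to 12.38 in the other 7 populations. In CDX population 2 both arrays were below the other 4 CDX arrays for 6 of the 6 accessory gland serpins, and for Spn28B, Spn28Da and Spn28Db as well. The same ordering held for 11 of the 29 serpin probe sets and for none of the 6 haemolymph serpins, against 10.7% of all tested probe sets. In MLX population 1 both arrays were below the other 4 MLX arrays for 3 of the 6 (Spn38F, Spn53F and Spn75F), against 12.6% of all tested probe sets. Both populations were singled out after the values were seen, and their differences from the other populations are therefore given without a test of their own. The median difference of the 6 genes between CDX population 2 and the mean of CDX populations 1 and 3 was -0.47, or 0.721-fold, with single genes between -0.55 and -0.21. Between MLX population 1 and the mean of MLX populations 2 and 3 it was -0.14, with 6 of 6 lower and single genes between -0.38 and -0.019. The medians over all tested probe sets were -0.0092 for CDX population 2 and -0.0068 for MLX population 1.

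Spn38F had 13.21 and 13.22 in CDX population 2, against 13.70 and 13.79 in CDX population 1 and 13.65 and 13.66 in CDX population 3. Spn28F had 12.81 and 12.78 in CDX population 2, against 13.27 to 13.30 on the other 4 CDX arrays. For both genes the arrays of CDX population 2 were also the lowest of all 18 arrays. Spn75F had 10.53 and 10.56 in CDX population 2, against 10.97 to 11.05 on the other CDX arrays. Spn53F had 7.57 and 7.78 in CDX population 2, against 8.13 to 8.34 on the other CDX arrays. Spn75F and Spn53F were also low in MLX population 1, with 10.49 and 10.65 for Spn75F and 7.79 and 7.83 for Spn53F, whereas their other 4 MLX arrays lay between 10.88 and 11.00 and between 7.97 and 8.29. All 4 genes code for seminal fluid proteins.

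The neighbouring genes Spn77Bb and Spn77Bc had smaller gaps. Spn77Bb had 14.11 and 14.06 in CDX population 2, against 14.20 to 14.40 on the other CDX arrays. Spn77Bc had 13.22 and 13.31 in CDX population 2, against 13.56 to 13.71. For Spn77Bb the lowest value of all, 13.95, came from a Control array, so that the low level was not a property of CDX population 2 alone. Spn77Ba, the next gene in this cluster and a serpin that controls melanisation of the tracheae, had 9.45 and 9.40 in CDX population 2, within the 9.27 to 9.41 of the other CDX arrays on 1 array and just above them on the other.

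**Figure D1:**
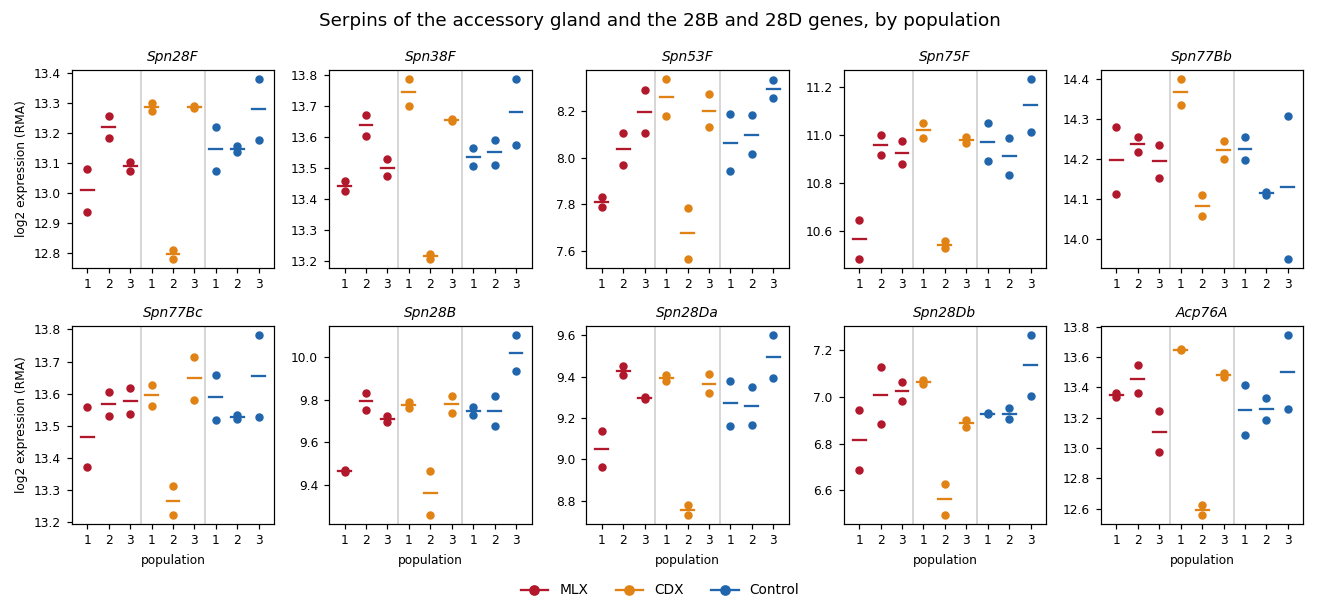
Log2 expression (RMA) of the 6 accessory gland serpins, of Spn28B, Spn28Da and Spn28Db, and of Acp76A, on each array by population (x axis) in MLX, CDX and Control males. Each point is 1 array and each line the mean of the 2 arrays of a population, and in every panel both points of CDX population 2 lie below the other 4 CDX arrays.

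The moderated F test of limma asked whether populations within treatments differed by more than the 2 arrays of a population. After adjustment over all tested probe sets it called 6 of the 29 serpin probe sets (20.7%), against 1.35% of all tested probe sets. These were 4 of the 6 accessory gland serpins, Spn38F (adjusted p = 0.0214), Spn75F (0.0291), Spn28F (0.0292) and Spn53F (0.0448), together with Spn28Da (0.0144) and Spn28B (0.0260). Spn77Bc (0.23) and Spn77Bb (0.47) did not pass, nor did Spn28Db (0.129). No haemolymph serpin passed, and Spn88Ea came nearest, with an adjusted p of 0.0504 just outside the threshold. Within CDX males alone, limma called 7 serpins, which were the same 6 and Spn31A, against 0.543% of all tested probe sets. Within MLX males alone it called none, against 0.634% of all tested probe sets, although 9 serpins had an unadjusted p under 0.05. Within Control males alone it also called none, against 0.245%, with 7 at an unadjusted p under 0.05. For these unadjusted counts the share of all tested probe sets was not determined, and they are not read as a result about serpins. Whether the spread between populations differed between treatments was not tested.

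These calls rested on few populations. Without CDX population 2 the F test of limma called 0 serpins. There 11 had an unadjusted p under 0.05, against 17 with all populations, and the share of all tested probe sets was not determined. Without CDX population 1 the test called 1 (Spn28Da), and without MLX population 1 it called 2 (Spn38F and Spn28Da). Calls over all tested probe sets fell as well, from 253 to 109, 130 and 81 in these settings. The serpins, with 6 called in the main test, lost a larger share of their calls in the settings without CDX population 2 or 1. With each array centred on its median, Spn28F, Spn53F and Spn75F were no longer called (adjusted p = 0.0592, 0.0759 and 0.055), and Spn88Ea and Spn31A were (0.0219 and 0.0275). The F test also called the haemolymph serpin Spn88Ea after repeated quantile normalization (adjusted p = 0.0235), a filter on low values (0.0398) and trend and robust moderation (0.00701). It did so without Control population 1 (0.0297) or 2 (0.0486), but not without any other population.

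The serpins that are less surely of the accessory gland followed the same order. Spn28Da had 8.73 and 8.78 in CDX population 2, against 9.32 to 9.41 on the other CDX arrays, a difference of -0.62 (0.649-fold) that was the largest among the 29 probe sets. Spn28B had 9.26 and 9.47 in CDX population 2, against 9.74 to 9.82 on the other CDX arrays. Spn28Db, the neighbour of Spn28Da, had 6.50 and 6.63 in CDX population 2, against 6.87 to 7.07. The third gene at 28D, Spn28Dc, limits melanisation by phenoloxidase, and had 7.47 and 7.58 in CDX population 2, against 7.30 to 7.50, so that genes of the same cytological band did not share the low level. Both arrays of MLX population 1 were below the other 4 MLX arrays for Spn28B (9.47 and 9.46, against 9.70 to 9.83) and Spn28Da (8.96 and 9.14, against 9.29 to 9.45). Over all serpins this held for 9 of 29 probe sets in MLX population 1, against 12.6% of all tested probe sets. Acp76A, outside the rule, had 12.62 and 12.56 in CDX population 2, against 13.47 to 13.65 on the other CDX arrays, a difference of -0.98 (0.508-fold), and the F test of limma called it (adjusted p = 0.0194).

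Markers of the male reproductive organs were also mostly lower in CDX population 2 and MLX population 1. The list of 13 accessory gland markers includes Dup99B, a peptide of the ejaculatory duct. All 13 were lower in CDX population 2 than in the mean of CDX populations 1 and 3, with a median of -0.26. For 11 of the 13, Dup99B among them, both arrays were below the other 4 CDX arrays, against 10.7% of all tested probe sets. In MLX population 1, 12 of the 13 were lower than in the mean of MLX populations 2 and 3, with a median of -0.13. Their level, as a mean over the 13 genes, was 12.63 and 12.66 in CDX population 2 and 12.89 to 12.99 on the other CDX arrays. None of the 13 had a mean under the lower quartile of all tested probe sets, and the F test of limma called 3 of 13 (Acp26Aa, Acp29AB and Acp36DE), against 1.35% of all tested probe sets. The lower level was not limited to these markers. In MLX population 1 the 5 testis markers were all lower than in the other MLX populations, with a median of -0.13. In CDX population 2, 4 of the 5 testis markers were lower, with a median of -0.115. In these bulk samples fewer cells of the accessory gland and less RNA per cell cannot be told apart. The part of either in the serpin values was not tested.

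The proteases and protease substrates of the seminal fluid had the same order. Acp26Aa and Acp36DE belong to this list and to the markers above. For all 7 measured genes both arrays of CDX population 2 were below the other 4 CDX arrays, against 10.7% of all tested probe sets, with a median difference of -0.43 from the other CDX populations. In MLX population 1 both arrays were below the other 4 MLX arrays for 6 of the 7, against 12.6%, with a median difference of -0.22 from the other MLX populations. The F test of limma called 6 of the 7, against 1.35% of all tested probe sets, including the protease Semp1 (adjusted p = 0.0194, difference -0.65) and the protease homologue intr (0.0220, difference -0.46). Semp1 takes part in the processing of seminal proteins. Acp36DE, a seminal protein needed for sperm storage, was also called (0.00953, difference -0.46). The aqrs gene, another protease homologue, did not pass (0.0607).

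Haemolymph serpins had the opposite sign in the same population. All 6 were higher in CDX population 2 than in the mean of CDX populations 1 and 3, with a median of 0.095 and single genes between 0.047 and 0.22. The 6 haemocyte markers were also all higher there, with a median of 0.16. Of the 3 fat body markers, 2 were lower there, with a median of -0.074. The part of either tissue was not tested.

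**Figure D2:**
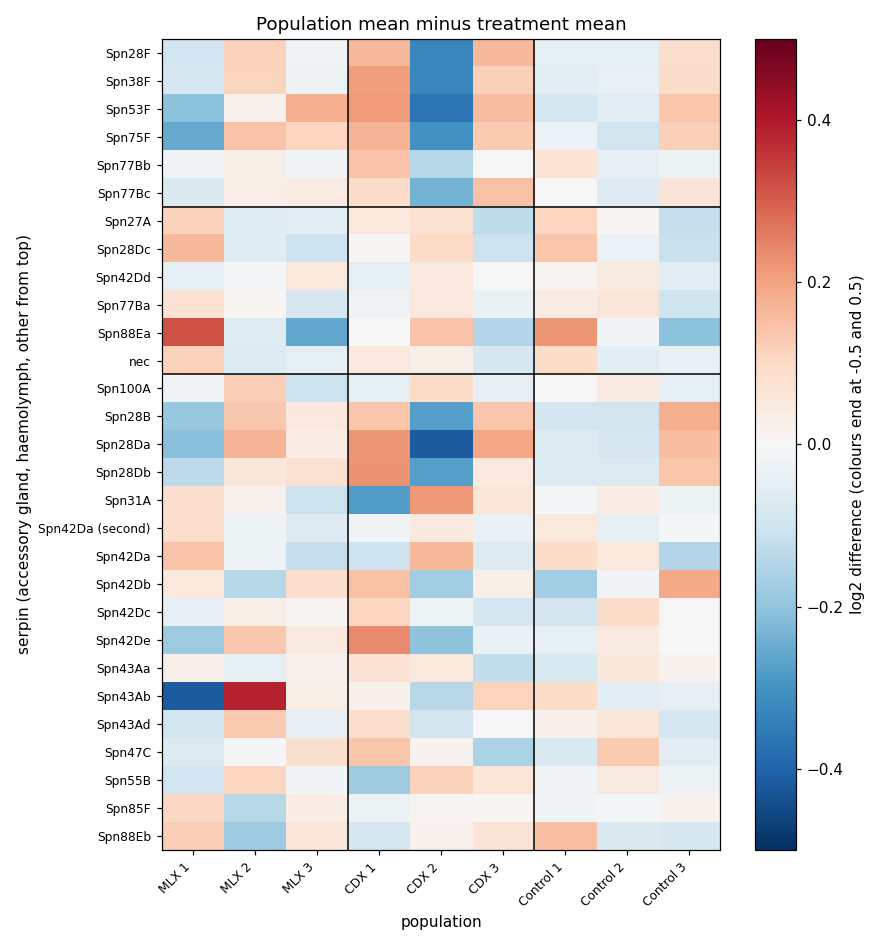
Mean of each population minus the mean of its treatment (colour, log2, blue lower and red higher) for the 29 serpin probe sets in rows and the 9 populations in columns, with lines between accessory gland, haemolymph and other serpins and between treatments. CDX population 2 is blue in all 6 rows of the accessory gland serpins and darkest at Spn28Da, where it was 0.62 below the other CDX populations.

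Between treatments, the values of the accessory gland serpins overlapped. No serpin passed the adjusted test of limma between MLX and Control males, between CDX and Control males or between MLX and CDX males, and neither did any other probe set (0% called in each comparison). The paper, with treatment fixed, population random and the same false discovery rate, did report transcripts that differed between treatments. The reason for this disagreement was not tested. Without adjustment, none of the 6 accessory gland serpins had a p under 0.05 in any comparison, against 4.19% of all tested probe sets between MLX and Control males, 2.98% between CDX and Control males and 2.61% between MLX and CDX males. Spn75F, the largest of them between MLX and Control males, had a lowest, median and highest value of 10.49, 10.90 and 11.00 in MLX males, 10.53, 10.98 and 11.05 in CDX males and 10.83, 11.00 and 11.23 in Control males. Its difference was -0.18 ± 0.11 (SE) between MLX and Control males (limma, unadjusted p = 0.105) and -0.15 ± 0.11 between CDX and Control males (limma, unadjusted p = 0.169). All 3 treatments overlapped only between 10.83, the lowest Control array, and 11.00, the highest MLX array, and the arrays below that were from MLX and CDX males.

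Spn53F had 7.79, 8.04 and 8.29 as its lowest, median and highest value in MLX males, 7.57, 8.16 and 8.34 in CDX males and 7.94, 8.18 and 8.33 in Control males. Spn28F had 12.94, 13.09 and 13.25 in MLX males, 12.78, 13.28 and 13.30 in CDX males and 13.07, 13.17 and 13.38 in Control males. In both genes the low end in CDX males was population 2, while the CDX median was close to or above that of Control males. Spn38F had 13.42, 13.50 and 13.67 in MLX males, 13.21, 13.66 and 13.79 in CDX males and 13.51, 13.57 and 13.79 in Control males. Spn77Bc had 13.37, 13.55 and 13.62 in MLX males, 13.22, 13.57 and 13.71 in CDX males and 13.52, 13.53 and 13.78 in Control males. Spn77Bb, the exception in sign among the 6 in both comparisons with Control males, had 14.11, 14.23 and 14.28 in MLX males, 14.06, 14.22 and 14.40 in CDX males and 13.95, 14.16 and 14.31 in Control males.

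Over the 6 accessory gland serpins, the median difference was -0.074 between MLX and Control males, with 5 of 6 lower, and -0.077 between CDX and Control males, again with 5 of 6 lower. Between MLX and CDX males it was -0.017. The same median over all tested probe sets was 0.0023, 0.0011 and 0.0015 in these comparisons, with 48.8%, 49.3% and 49.0% of probe sets lower. The comparisons share arrays, and these signs are not independent of each other. Without CDX population 2 the median between CDX and Control males was 0.087, with 5 of 6 higher, and that between MLX and CDX males was -0.18. The MLX minus CDX median was also above 0 without MLX population 1 (0.050), CDX population 1 (0.070) or CDX population 3 (0.047). The MLX minus Control median stayed below 0 whichever population was left out, at -0.028 without MLX population 1 and -0.031 without Control population 3. The 13 accessory gland markers had a median of -0.050 between MLX and Control males, with 11 of 13 lower, and of -0.080 between CDX and Control males, with 9 lower. The 7 seminal proteases and substrates were all lower in both comparisons, by a median of -0.10 and -0.087, with none at an unadjusted p under 0.05.

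**Figure D3:**
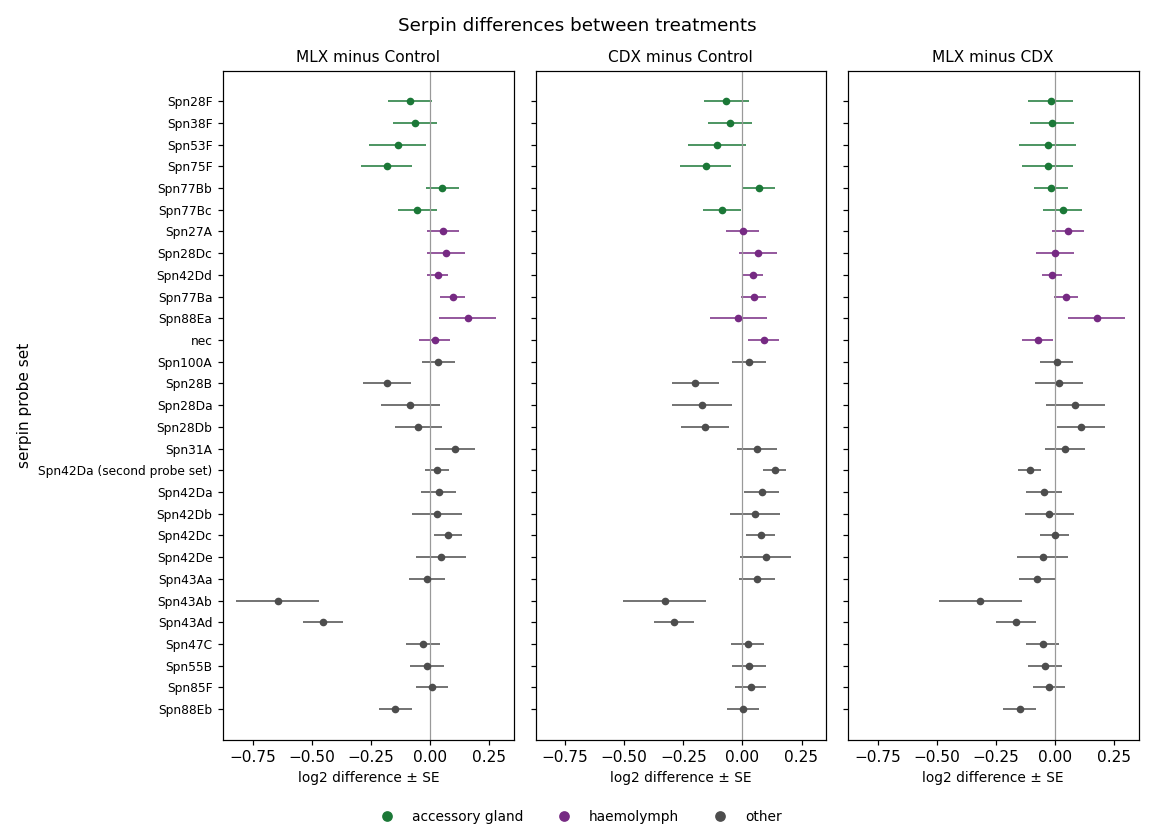
Log2 difference ± SE from limma (x axis) of the 29 serpin probe sets for MLX minus Control, CDX minus Control and MLX minus CDX, with 6 arrays per treatment. Spn43Ab (-0.64) and Spn43Ad (-0.45) stand furthest to the left in the first panel, and no accessory gland or haemolymph serpin had an unadjusted p under 0.05.

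The haemolymph serpins also overlapped between treatments. All 6 had higher means in MLX than in Control males, with a median difference of 0.062, and 5 of 6 did so in CDX males, with a median of 0.046. None had an unadjusted p under 0.05 in any comparison. Spn88Ea, a negative regulator of Toll signalling, varied most. It had 10.14 and 9.87 in MLX population 1, against 9.37 to 9.65 on the other MLX arrays, and Control population 1 was also above its group, with 9.56 and 9.93 against 9.30 to 9.56. Its difference between MLX and Control males was 0.16 ± 0.12 (limma, unadjusted p = 0.203).

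Spn77Ba had 9.33, 9.43 and 9.51 as its lowest, median and highest value in MLX males, 9.27, 9.39 and 9.45 in CDX males and 9.18, 9.36 and 9.39 in Control males. Its difference of 0.095 ± 0.051 between MLX and Control males had the lowest p of the list (limma, unadjusted p = 0.0791). Spn27A, which inhibits the protease Easter in the embryo and restrains melanisation in the haemolymph, had 9.17, 9.33 and 9.45 in MLX males, 9.11, 9.27 and 9.43 in CDX males and 9.12, 9.27 and 9.40 in Control males. The arrays overlapped over nearly their whole range, and the fitted difference between MLX and Control males was 0.056 ± 0.068.

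Spn28Dc had 7.22, 7.43 and 7.67 in MLX males, 7.30, 7.42 and 7.58 in CDX males and 7.22, 7.35 and 7.56 in Control males. Spn42Dd, a negative regulator of Toll signalling, had 11.03, 11.06 and 11.19 in MLX males, 11.02, 11.09 and 11.15 in CDX males and 10.96, 11.06 and 11.10 in Control males. The nec gene, whose product holds back the protease Persephone upstream of Toll, had 10.39, 10.48 and 10.66 in MLX males, 10.39, 10.58 and 10.67 in CDX males and 10.37, 10.47 and 10.68 in Control males. For Spn28Dc and nec the arrays of the 3 treatments covered similar ranges, whereas for Spn42Dd the treatments shared only the stretch between 11.03 and 11.10.

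Markers of haemocytes, the blood cells, had the same sign as the haemolymph serpins between MLX and Control males. All 6 markers had higher means in MLX than in Control males, with a median of 0.34, and 4 of 6 (Hml, NimC1, eater and Pxn) had an unadjusted p under 0.05 in limma, against 4.19% of all tested probe sets. None passed the adjusted test. Between MLX and CDX males all 6 were higher, with a median of 0.27, whereas 4 of 6 haemolymph serpins were, with a median of 0.024. Of the 3 fat body markers, 2 were lower in MLX than in Control males, with a median of -0.040. The mean over the haemocyte markers was highest in MLX population 1, at 8.02 and 8.08. It ran between 7.45 and 8.08 in MLX males, between 7.16 and 7.75 in CDX males and between 6.88 and 7.75 in Control males. None of the 6 had a mean under the lower quartile of all tested probe sets, and the part of blood cells in the serpin values was not tested. Without MLX population 1 the median of the haemolymph serpins between MLX and Control males was -0.00034, with 3 of 6 higher, and without Control population 3 it was 0.0082, with 5 of 6 higher. Without Control population 3 the median between CDX and Control males was 0.0047, with 3 of 6 higher.

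**Figure D4:**
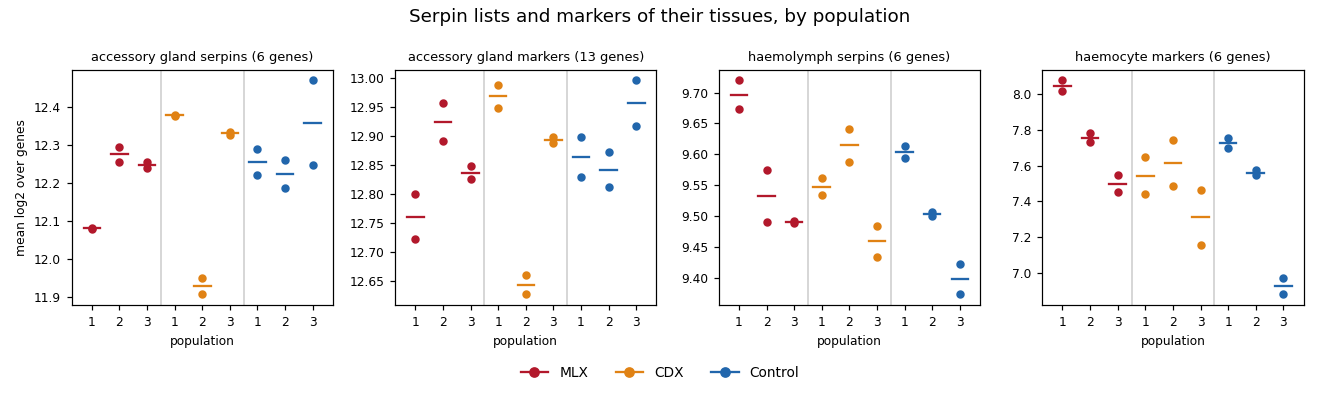
Mean log2 expression over the genes of a list (y axis) on each array by population (x axis), for the 6 accessory gland serpins, 13 accessory gland markers, 6 haemolymph serpins and 6 haemocyte markers in MLX, CDX and Control males. Points are arrays and lines are population means. CDX population 2 is lowest in both accessory gland panels, and MLX population 1 is highest in both of the others.

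The list for the Toll and melanisation cascades had 17 measured genes, which were proteases, protease homologues, substrates and the receptor Tl. Haemolymph serpins restrain these cascades, but the list is not one of known serpin targets. Of the 17, 3 (snk, gd and ndl) had a mean under the lower quartile of all tested probe sets. Between MLX and Control males, 12 had a positive and 5 a negative difference, with a median of 0.038, and 1 of 17 (spirit, 0.23) had an unadjusted p under 0.05 in limma, a share of 5.88% against 4.19% of all tested probe sets. Between CDX and Control males 12 were again higher and 5 lower, with a median of 0.038, and the unadjusted p was under 0.05 for SPE, the protease that processes the Toll ligand (0.28), and for the prophenoloxidase PPO3 (0.20), against 2.98% of all tested probe sets. Between MLX and CDX males 9 were higher and none had such a p. None passed the adjusted test. The F test between populations called 3 of the 17, PPO1 (adjusted p = 0.000584), PPO2 (0.0143) and sphinx2 (0.0449), against 1.35% of all tested probe sets. Both PPO1 and PPO2 are prophenoloxidases of the crystal cells and were also among the haemocyte markers.

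The differences between treatments that were largest among the serpins came from a pair of neighbours at 43A. Spn43Ab and Spn43Ad, which adjoin each other, had lower means in MLX and in CDX than in Control males, and their roles are not given here. Spn43Ad had 6.77, 6.59, 6.86, 6.94, 6.86 and 6.60 on the MLX arrays, 6.95, 7.10, 6.69, 7.00, 6.88 and 7.00 on the CDX arrays and 7.17, 7.33, 7.30, 7.27, 7.28 and 6.99 on the Control arrays. All 6 MLX arrays were below all 6 Control arrays, by a gap of 0.054 between the nearest arrays, and the CDX arrays lay between and overlapped both. It was 1 of 29 serpin probe sets with arrays of MLX and Control males that did not overlap, against 0.357% of all tested probe sets. No serpin had such a gap between CDX and Control males (0.144% of all tested probe sets) or between MLX and CDX males (0.16%).

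The difference of Spn43Ad was -0.45 ± 0.085 between MLX and Control males, or 0.730-fold (limma, unadjusted p = 3.58e-05, adjusted p = 0.223). Between CDX and Control males it was -0.29 ± 0.085 (limma, unadjusted p = 0.00302, adjusted p = 1.00). Between MLX and CDX males it was -0.17 ± 0.085 (limma, unadjusted p = 0.0672). Over 18 alternative settings the MLX minus Control difference lay between -0.52 and -0.41, with an adjusted p between 0.0727 and 0.959, so that it passed in none of them.

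Spn43Ab had 10.98, 11.50, 11.74, 12.34, 11.90 and 11.47 on the MLX arrays, 11.95, 12.04, 11.57, 12.10, 11.95 and 12.22 on the CDX arrays and 12.35, 12.43, 12.41, 12.08, 12.38 and 12.14 on the Control arrays. It was lower on 5 of 6 MLX arrays than on every Control array, and the remaining MLX array, from population 2, lay among them. The difference was -0.64 ± 0.18 between MLX and Control males, or 0.640-fold (limma, unadjusted p = 0.00156, adjusted p = 0.810), and -0.33 ± 0.18 between CDX and Control males (limma, unadjusted p = 0.0760). The population means did not overlap in either comparison. Means of so few populations can separate by chance, and the share of all tested probe sets with such a separation was not determined. Among the MLX populations the mean of Spn43Ab spanned 0.80, the widest such range among the serpins, and the 2 arrays of a population were on average 0.34 apart, so that the test between populations did not call it (adjusted p = 0.363). Left-out populations and other settings moved the MLX minus Control difference between -0.84 and -0.44.

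The other genes at 43A had smaller differences. The nec gene, which adjoins Spn43Ad on its other side, differed by 0.019 ± 0.065 between MLX and Control males. Spn43Aa had 5.06 to 5.40 on the MLX arrays, 5.19 to 5.48 on the CDX arrays and 5.07 to 5.41 on the Control arrays, with a difference of -0.012 ± 0.076 between MLX and Control males that changed sign in 3 of 18 settings. Among the 3 fat body markers, Lsp2, a larval serum protein, was the lowest gene of all tested probe sets between MLX and Control males, at -1.73, while the other 2 lay between -0.040 and 0.0049. Its part in the values at 43A was not tested.

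**Figure D5:**
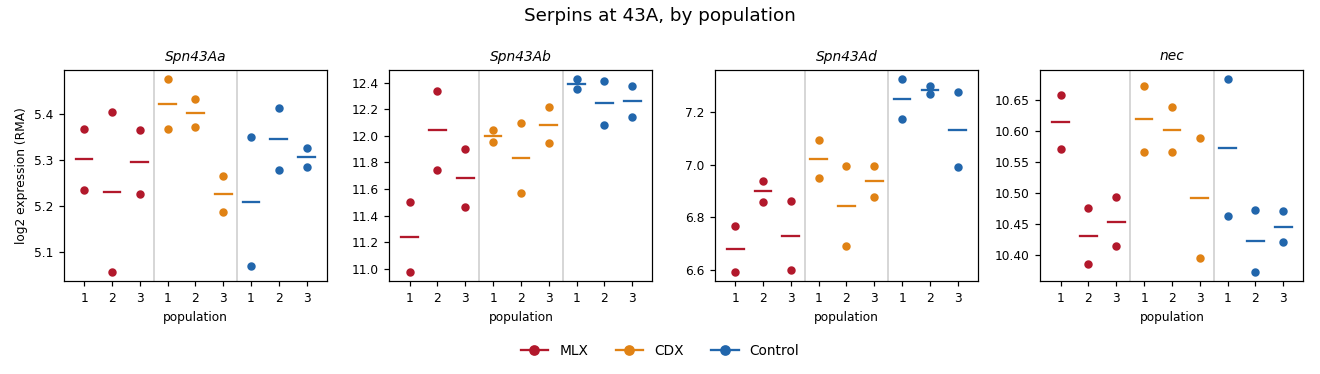
Log2 expression (RMA) of the 4 serpins at 43A on each array by population (x axis) in MLX, CDX and Control males, with points for arrays and lines for population means. For Spn43Ad the 6 MLX arrays lie below the 6 Control arrays, whereas for nec and Spn43Aa the treatments overlap.

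With the 43A genes included, 3 of 29 serpin probe sets (10.3%) had an unadjusted p under 0.05 between MLX and Control males, against 4.19% of all tested probe sets. The third was Spn88Eb, with 7.67, 7.92 and 7.99 as its lowest, median and highest value in MLX males, 7.91, 8.02 and 8.09 in CDX males and 7.92, 7.94 and 8.21 in Control males. Its 2 lowest values, 7.68 and 7.67, were both from MLX population 2. The difference was -0.15 ± 0.069 between MLX and Control males (limma, unadjusted p = 0.0471, adjusted p = 1.00) and -0.15 ± 0.069 between MLX and CDX males (limma, unadjusted p = 0.0437). Spn88Ea, its neighbour, had the opposite sign between MLX and Control males.

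Between CDX and Control males 2 of 29 probe sets had an unadjusted p under 0.05, against 2.98% of all tested probe sets, and between MLX and CDX males 2 of 29 did, against 2.61%. Beside Spn43Ad and Spn88Eb, both counts included the second probe set of Spn42Da, whose products include an inhibitor of furin. This probe set had 9.20, 9.29 and 9.41 as its lowest, median and highest value in MLX males, 9.31, 9.44 and 9.49 in CDX males and 9.21, 9.28 and 9.35 in Control males. Its difference was 0.14 ± 0.050 between CDX and Control males (limma, unadjusted p = 0.0135) and -0.11 ± 0.050 between MLX and CDX males (limma, unadjusted p = 0.0451). The other probe set of the gene, which was brighter, gave 0.081 ± 0.075 and -0.046 ± 0.075 for the same comparisons, with unadjusted p of 0.294 and 0.553 in limma. Of the furin-type proteases, Fur2 differed by -0.036 and amon by -0.075 between CDX and Control males, neither with an unadjusted p under 0.05.

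Spn31A also differed between CDX populations, but the population that stood apart was CDX population 1, which was lowest. It had 7.34 and 7.25 in CDX population 1, 7.70 and 7.88 in CDX population 2 and 7.65 and 7.61 in CDX population 3, and the F test of limma within CDX males called it (adjusted p = 0.0256). Over the 3 treatments together it lay just outside the threshold (adjusted p = 0.0504). The arrays of MLX males (7.47 to 7.70) and Control males (7.41 to 7.58) covered narrower ranges.

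The remaining 8 serpins (Spn100A, Spn42Db, Spn42Dc, Spn42De, Spn43Aa, Spn47C, Spn55B and Spn85F) had differences between -0.030 and 0.076 between MLX and Control males and between 0.022 and 0.098 between CDX and Control males. Their unadjusted p was at least 0.222 and 0.218 in these comparisons, and between populations within treatments their adjusted p was at least 0.202. At 42D, Spn42Db and Spn42De were lower on both arrays of CDX population 2 than on the other CDX arrays, while Spn42Da, Spn42Dc and Spn42Dd were not. Over the whole family of 28 genes, MLX males had the higher mean for 14 and Control males for 14, with a median difference of -0.0012. CDX males had the higher mean for 17 and Control males for 11, with a median difference of 0.025.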

How the data were processed

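RNA of whole adult males was measured on 18 arrays. The deposited values are log2 expression, which the authors obtained with RMA through affy (version not stated in the labels or the paper). All 18 columns were used. Of 18952 probe sets, 183 Affymetrix controls were left out. Symbols and arms came from the platform annotation and from RefSeq (Release 6 plus ISO1 MT, for names and neighbours only). Array medians lay between 6.96 and 7.08, and the number of arrays limits the precision.

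Differences between treatments came from limma 3.58.1 under R 4.3.3, in which the 9 populations formed a random block (duplicateCorrelation, correlation 0.192), with eBayes and Benjamini-Hochberg adjustment over 18769 probe sets at 0.05. Populations within treatments were tested by a moderated F test with population fixed. Both fits were run on simulated data with shifts larger than the serpin list medians between treatments. That run does not show whether shifts as small as these medians would be found. Genes with several probe sets were represented by the brightest in list medians. Array values were given for the accessory gland and haemolymph serpins and for any other serpin with an unadjusted p under 0.05 between treatments or an adjusted p under 0.05 between populations. Other serpins were given by range, and those described beyond this, among them Spn28Db, Spn31A and Acp76A, were chosen after their values were seen. The members and lists were chosen with earlier results of these data known. The lists were the serpin groups, the Toll and melanisation cascade, seminal proteases, furins, and markers of accessory gland, fat body, haemocytes, testis, and yolk and eggshell.

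Alternatives were population means, independent arrays, a replicate block, median centring, repeated quantile normalization, a filter on low values, robust moderation, left-out populations, other list rules, and, chosen after seeing the data, the yolk and eggshell mean as a covariate and the removal of the 6 arrays highest in it, the F test within each treatment or without each population, and Acp76A added. Python 3.11.15, numpy 2.4.6, pandas 2.3.3 and matplotlib 3.10.9 were used. Gene order was taken from the RefSeq positions, but no coordinates are printed, and sequences were not used here.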

Additional observations from a re-analysis of the deposited data

Results flagged for a closer look

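In 4 of 87 groups of 6 arrays, a single array of a serpin lay far from the other 5, with a gap above 0.625 of the group's whole range (Dixon's criterion). About 1 in 20 groups meets this by chance. Spn38F had 13.79 on the second array of Control population 3, against 13.51 to 13.59 on the other 5 Control arrays, and Spn28Db had 7.27 on the same array, against 6.90 to 7.01. Spn77Bc had 13.37 on the second array of MLX population 1, against 13.53 to 13.62 on the other 5 MLX arrays. The nec gene had 10.68 on the first array of Control population 1, against 10.37 to 10.47 on the other 5 Control arrays.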

How the results depend on the processing

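No serpin passed the adjusted test between treatments in any setting tried. Counts were taken as moved beyond 1.5 times, and list medians beyond 1 SD between populations. By this rule 19 alternative values moved, all of them counts, and 285 did not, but 11 of the 183 alternative list medians had the other sign, 9 of them with a population left out. Among these, the accessory gland median was 0.087 between CDX and Control males without CDX population 2, and the haemolymph median was -0.00034 between MLX and Control males without MLX population 1. Population means, independent arrays, the replicate block and robust moderation cannot change a list median. Nor can leaving out a population of the treatment that is not compared. The 285 and the 183 include such settings, and so overstate how stable the medians are. For counts at an unadjusted p under 0.05, the MLX and Control comparison gave 3 and ran between 2 and 5 with a population left out, the CDX and Control comparison gave 2 and ran between 1 and 5, and the MLX and CDX comparison gave 2 and ran between 0 and 4. The count between MLX and Control males was 5 without MLX population 3. The count between CDX and Control males was 5 without CDX population 1, 4 without MLX population 1 and 1 without CDX population 2. That between MLX and CDX males was 4 without CDX population 2, 0 without Control population 2 and 1 without CDX population 3, Control population 1 or Control population 3. Without the 6 arrays highest in yolk and eggshell markers, a setting chosen after seeing the data, 5 probe sets had such a p between MLX and Control males and 1 between CDX and Control males. Between MLX and CDX males the count was 0 on population means, after median centring and after repeated quantile normalization, and also 0 with the replicate block. The F test between populations called 6 serpins, 10 with trend and robust moderation, and between 0 and 8 with a population left out. Over all tested probe sets these settings called 253, 504 and between 81 and 288. Same-numbered populations of different treatments deviated together with correlations between -0.137 and 0.384, not all above 0.1, so the numbers were not taken as pairs, and the replicate block changed no adjusted call. Between MLX and Control males the same-numbered correlations were 0.384, 0.084 and 0.239, against -0.303 to 0.082 for different numbers. With CDX males they ran between -0.137 and 0.176, against -0.33 to 0.217 for different numbers. Whether MLX and Control populations of a number share a pattern was not tested. Of 87 gene comparisons, 52 changed sign in at least 1 of 18 settings. With Spn28B, Spn28Da and Spn28Db moved to the accessory gland list, the median of the other serpins between MLX and Control males was 0.0091, against -0.013 otherwise. The number of arrays and populations limits all of these values.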
